A study of Mus musculus with 2 samples.

Results

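The interferon-response genes examined here are a list of 40 genes that interferons switch on or that carry and sense the interferon signal. Every probe set whose single platform symbol is a listed gene was taken. This gave 59 probe sets for 38 of the 40 genes, out of 45037 probe sets and 18193 named genes in the series. Isg15 is on the array only in a probe set that also names a second gene, and Ifi44 has no probe set of 1 named gene, so neither has a value here. Members were found by gene symbol alone, with no threshold on a measured value. The 38 genes fall into 18 type I antiviral effectors, 6 GTPases induced by interferon gamma, 2 induced chemokines, and 12 receptors, signalling genes and RNA sensors.

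A 1-channel array titled DKO was compared with 1 titled TKO, both of C57BL/6J mouse thymocytes. Both came from the fraction of thymocytes that lacks lineage markers, kept after bead depletion, and the growth field adds culture in standard medium. By the series' design text all mice were Cdkn2a-/-, Ring1A-/- and Ring1Bfl/fl, without LckCre in DKO and with LckCre in TKO, so that the Cre, active in T-lineage cells, would delete floxed Ring1B in TKO alone. The genotype field of the samples instead gives loss of Ring1A and Ring1B for DKO, and of both plus Cdkn2a for TKO. Ring1A and Ring1B (genes Ring1 and Rnf2) attach ubiquitin to histone H2A as part of Polycomb repressive complex 1, and the Cdkn2a products Ink4a and Arf restrain the cell cycle. The age of the mice, their sex and whether animals were pooled are not stated in the labels.

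Type I interferons (alpha and beta) bind a receptor made of Ifnar1 and Ifnar2, and interferon gamma binds Ifngr1 and Ifngr2. The type I signal reaches DNA mainly through a complex that holds Stat2 and Irf9 and binds the interferon-stimulated response element (ISRE), while interferon gamma acts chiefly on the gamma-activated site (GAS). Target genes include enzymes that degrade or block viral RNA, GTPases that attack membranes around intracellular microbes, and the RNA sensors themselves. In the thymus these genes are known to be active at a low tonic level in the absence of infection.

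The promoters of the members carry ISRE letters far more often than promoters at large, and some of these stretches are shown first because they are a sequence feature that about as many members hold as lack. RefSeq promoters (assembly GRCm38.p6, 250 bases before to 50 after the start site) were found for 33 of the 40 genes. ISRE letters (GAAA, any 2 bases, then GAAA, or on the other strand TTTC, any 2 bases, then TTTC) were present for 17 of these 33 genes (51.5%), against 3.93% of 26992 genes other than members. GAS letters, TTCNNNGAA, which read alike on both strands, were present for 10 of 33 (30.3%) against 9.53%. The 2 motifs overlapped in 1 member, Bst2. A match is a description of the letters only. Of all 32851 promoters in the table, 3.44% held ISRE letters and 8.30% GAS letters. The stretches below run 5′ to 3′ on the strand of the gene, lie wholly before the start site, and show the ISRE letters in capitals. They cover the chemokine past 2-fold, 5 antiviral effectors, 2 GTPases, and 2 signalling genes.
Cxcl10 (chr5:92349078-92349117, minus strand): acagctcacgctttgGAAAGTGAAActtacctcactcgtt
Ifit3 (chr19:34583358-34583431, plus strand): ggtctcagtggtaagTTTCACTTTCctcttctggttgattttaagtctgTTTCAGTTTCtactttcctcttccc
Ifit1 (chr19:34640770-34640828, plus strand): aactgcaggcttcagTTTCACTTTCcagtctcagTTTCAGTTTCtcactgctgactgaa
Oas1a (chr5:120907526-120907560, minus strand): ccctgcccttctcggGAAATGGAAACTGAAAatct
Rsad2 (chr12:26456548-26456587, minus strand): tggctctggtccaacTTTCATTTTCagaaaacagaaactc
Bst2 (chr8:71537572-71537617, minus strand): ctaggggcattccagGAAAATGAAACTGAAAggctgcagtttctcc
Gbp2 (chr3:142620589-142620628, plus strand): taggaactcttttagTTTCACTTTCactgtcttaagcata
Irgm1 (chr11:48871421-48871465, minus strand): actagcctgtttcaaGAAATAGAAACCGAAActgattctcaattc
Socs1 (chr16:10785589-10785634, minus strand): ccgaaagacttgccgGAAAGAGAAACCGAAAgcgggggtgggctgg
Stat2 (chr10:128270261-128270300, plus strand): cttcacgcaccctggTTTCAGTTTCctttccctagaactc

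As a group the interferon-response genes differed little between the arrays, with a small lean toward the TKO-labelled one. Only Cxcl10 and Mx2 passed 2-fold toward the TKO-labelled array, 0 members passed it the other way, and 36 were neither. The 2 of 38 (5.26%) stand beside 3.58% of all 11280 measured genes at least 2-fold higher, and the 0 beside 0.532% at least 2-fold lower. The median log2 ratio of the members, TKO-labelled minus DKO-labelled, was 0.21 against -0.03 over all measured genes, and 30 of 38 members (78.9%) were above 0 against 46.5% of all genes. At 1.5-fold, 9 of 38 members were higher and 0 of 38 lower. Of all 11280 measured genes, 977 (8.66%) were higher and 369 (3.27%) lower, so the share higher was larger among the members. With 1 array per genotype there is no spread between animals or cultures, no test was possible, and these are descriptions of 2 hybridisations. A signal below the median of its array (the floor, 68.8 in DKO and 71.8 in TKO) was raised to that floor, so a ratio with 1 side under it is a bound. With the floor at the 75th percentile instead (417 and 431), neither Cxcl10 nor Mx2 has a ratio and 0 of the 25 members left pass 2-fold upward, where 2.04% of all genes do, so the 0 is near the background. In such bulk RNA, fewer cells of a type and less RNA per cell cannot be told apart.

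**Figure D1:**
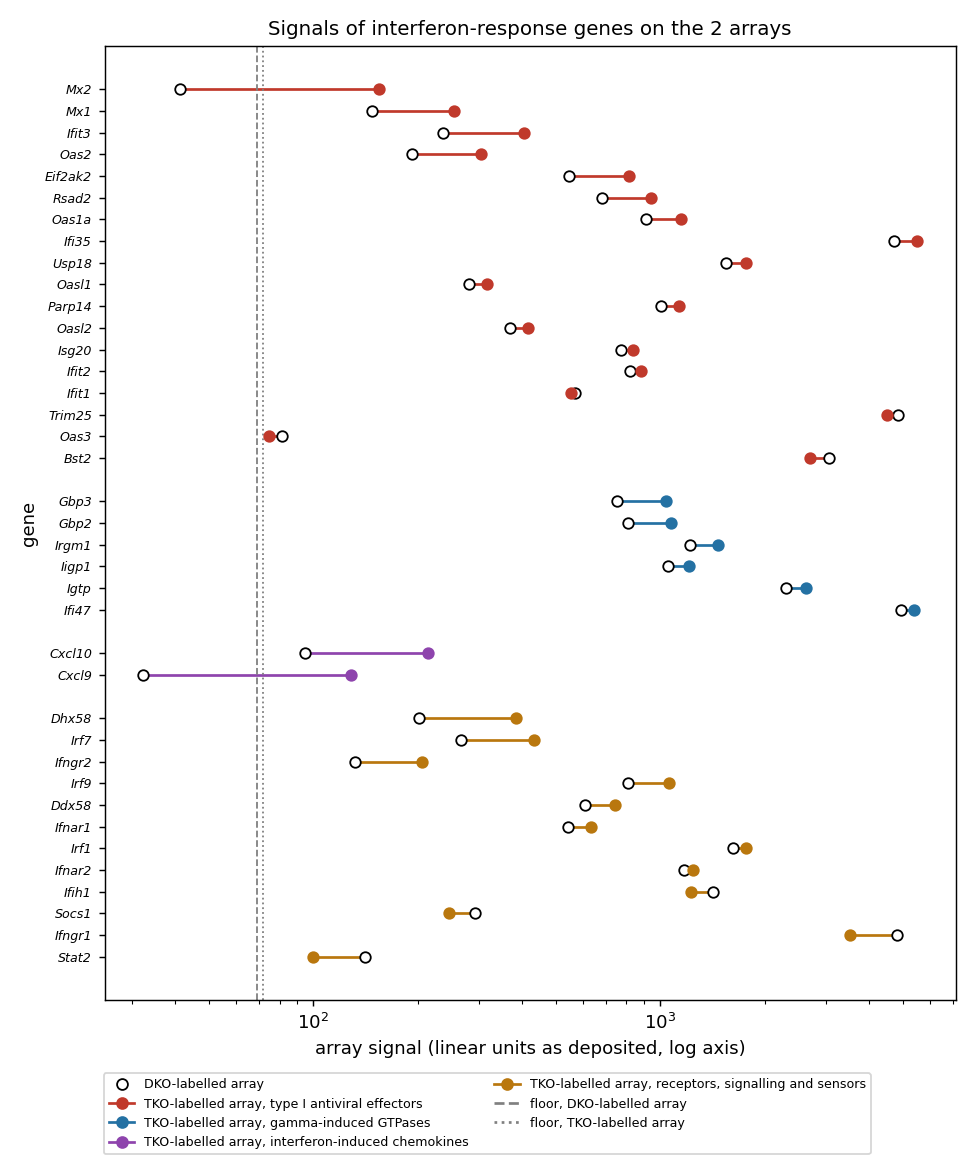
Signal of each of the 38 interferon-response genes on the DKO-labelled array (open circle) and the TKO-labelled array (filled circle) on a log axis, by class, with the floors as dashed and dotted lines; each gene is shown by its brightest probe set and each point is 1 array. Most filled circles lie a short way to the right of the open ones, and the widest gaps belong to Mx2 and Cxcl9, whose DKO-labelled signals lie left of the floor.

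The only gauge of error in these data is the disagreement between probe sets of the same gene, read from the same hybridisations. It was taken between the 2 brightest probe sets of 4794 genes with at least 2 measured on both arrays. Scaled to the log2 ratio of 1 probe set, it gave a robust SD of 0.21. That SD holds no error between animals, cultures or RNA preparations. Of the 38 members, 19 (50%) had a ratio above that SD and 4 (10.5%) a ratio below its negative, against 24.2% of all genes on each side. Of all 56 measured probe sets of the members, 2 were at least 2-fold higher and 0 lower. Of all measured probe sets of 1 gene, 2.97% were higher and 0.510% lower. Above 0 were 40 of the 56, a count taken without a share over all probe sets. Cxcl10 and Mx2, the members past 2-fold, have 1 probe set each, so agreement between probe sets could not be read for them. Elsewhere direction was not steady between probe sets of the same gene. In 11 members with at least 2 probe sets measured on both arrays, the 2 brightest had the same sign in 6. No share over all genes was taken for this count. The median absolute difference between those 2 brightest probe sets was 0.23, about as large as the members' median ratio. The other 3 member probe sets, 1 of Cxcl9 and 2 of Dhx58, were below the floor on both arrays.

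**Figure D2:**
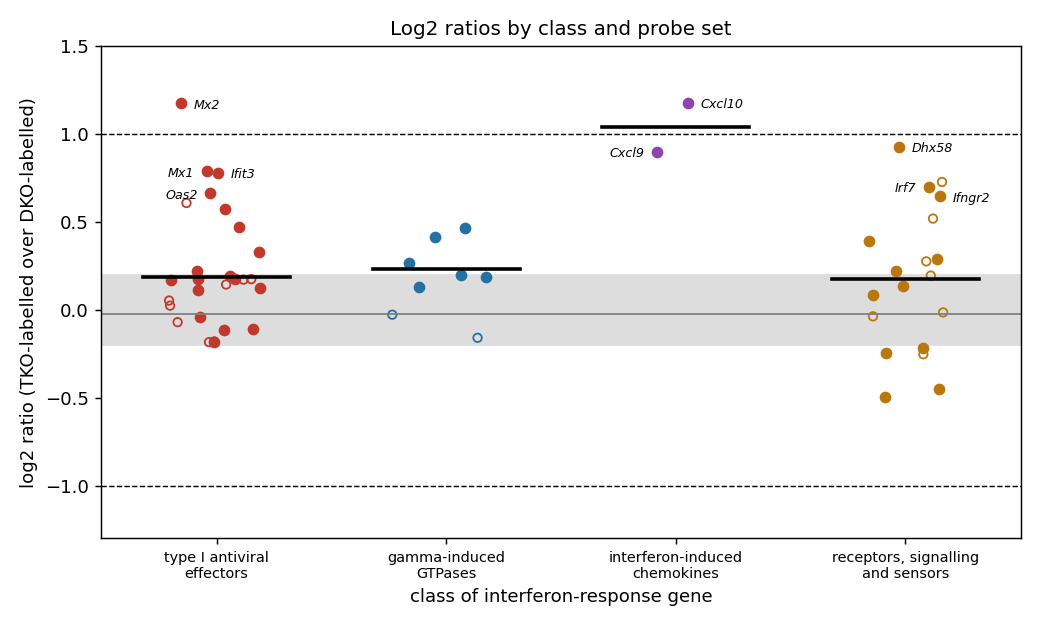
Log2 ratio (TKO-labelled over DKO-labelled) of the members by class. Filled points are the brightest probe set of each gene, open points its other measured probe sets, black bars the class medians, the grey band the middle 50% of all measured genes and dashed lines 2-fold. Mx2 and Cxcl10 alone lie above the upper dashed line, and the receptor, signalling and sensor class reaches from -0.50 to 0.93.

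The type I antiviral effectors were centred slightly above 0, with Mx2 at the top. Over 18 measured genes the median log2 ratio was 0.19, and 14 were above 0 (77.8%, against 46.5% of all genes). By the 2-fold rule 1 was higher (5.56%, against 3.58% of all genes) and 0 lower (against 0.532%). Both counts were near the background. Mx2, an interferon-induced gene of the dynamin-like GTPase family, went from 41.3, below the floor, in DKO to 155 in TKO. It was at least 2.26-fold higher in the latter. Its neighbour Mx1, a gene of the same family, had 148 and 255 (log2 ratio 0.79). The pair lies side by side on chromosome 16, and both have only 1 probe set.

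The Ifit proteins, which bind foreign RNA ends and stop their translation, were not alike although their genes lie together on chromosome 19. Ifit3 had 237 in DKO and 406 in TKO (log2 ratio 0.78), the order in which all pairs of signals are given. Ifit2 had 817 and 881 (log2 ratio 0.11), and Ifit1 had 569 and 553 (log2 ratio -0.04). Both Ifit1 and Ifit3 hold 2 stretches of ISRE letters in the sequences printed above, so the shared letters went with ratios near 0 and near 0.8 alike. Ifit3 has a near-identical copy, Ifit3b, with no probe set of its own here, and their transcripts may share the signal.

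The oligoadenylate synthetases, which make the messenger that activates RNase L, also spread. Oas2 had 193 and 305 (log2 ratio 0.66), Oas1a had 911 and 1146 (log2 ratio 0.33), and Oas3 lay just above the floor on both arrays at 81.1 and 74.8 (log2 ratio -0.12). These 3 genes are neighbours on chromosome 5. The related Oasl1 (281 and 317) and Oasl2 (369 and 416), another neighbouring pair on that chromosome, had nearly the same log2 ratios of 0.18 and 0.17. None of the 5 reached 2-fold.

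Eif2ak2 (PKR), the kinase that halts translation on sensing double-stranded RNA, had 546 and 812 (log2 ratio 0.57), and its 2 other probe sets gave 0.61 and 0.05. Rsad2 (viperin), which makes a chain-terminating nucleotide, had 681 and 944 (log2 ratio 0.47) with its brightest probe set and -0.18 with each of the 2 others, so its sign rests on the probe set chosen. Usp18, the protease that removes Isg15 from proteins and dampens the type I receptor, had 1545 and 1768 (log2 ratio 0.19). Ifi35 had 4710 and 5494 (log2 ratio 0.22) with 3 probe sets between 0.14 and 0.22, the closest agreement among members with 3. Parp14, an ADP-ribosyltransferase, had 1005 and 1132 (log2 ratio 0.17), and the exonuclease Isg20 had 770 and 838 (log2 ratio 0.12).

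Besides Ifit1 and Oas3, 2 more antiviral members were below 0 without reaching 2-fold. Bst2 (tetherin), which holds budding virus at the membrane, had 3071 and 2707 (log2 ratio -0.18). Trim25, the ubiquitin ligase that acts with the sensor encoded by Ddx58, had 4849 and 4501 (log2 ratio -0.11), and its 3 probe sets ran from -0.11 to 0.17. Bst2 is also known as a surface marker of plasmacytoid dendritic cells in resting mice. Of the 10 measured markers of those cells 2 were at least 2-fold higher, and the median log2 ratio of the 10 was 0.41. The 6 above 0 included Pacsin1 (1.85), Spib (1.45), Irf8 (0.81) and Ccr9 (0.53, with 5 probe sets from -0.35 to 0.75). The 4 below 0 were Il3ra (-0.82), Ly6d (-0.59), Klk1 (-0.56) and Bst2 itself. Siglech (63.9 and 58.7) and Clec10a lay under the floor in DKO and TKO alike. What part plasmacytoid dendritic cells had in the Bst2 value was not tested.

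The GTPases induced by interferon gamma all lay on the same side of 0, each by less than 2-fold. All 6 were measured on both arrays, with log2 ratios from 0.13 to 0.46 and a median of 0.23. The 6 above 0 stand beside 46.5% of all genes. Past 2-fold were 0 in either direction, near the 3.58% higher and 0.532% lower over all genes. The guanylate-binding proteins, which coat and break open microbe-containing vacuoles, gave 754 and 1039 for Gbp3 (log2 ratio 0.46) and 808 and 1075 for Gbp2 (log2 ratio 0.41). A second Gbp2 probe set, without the cross-hybridisation suffix of the first, went the other way (834 and 747, log2 ratio -0.16). The smaller immunity-related GTPases gave 1218 and 1464 for Irgm1 (log2 ratio 0.27), 1053 and 1210 for Iigp1 (0.20), 2303 and 2625 for Igtp (0.19), and 4945 and 5404 for Ifi47 (0.13). A second Iigp1 probe set was at -0.03. ISRE letters stood in 4 of the 5 promoters available for this class, the exception being Ifi47.

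The chemokines Cxcl10 and Cxcl9, which draw activated T and NK cells through the receptor Cxcr3, had the largest class median, over 2 genes only. Cxcl10 had 94.8 in DKO and 214 in TKO and was 2.26-fold higher there (log2 ratio 1.18). Cxcl9, its neighbour on chromosome 5, had 32.4, below the floor, and 128, at least 1.86-fold, a bound that cannot place it under or past 2-fold and that passes 2-fold with the floor at the 25th percentile (log2 ratio 1.99). Only 1 of the 2 Cxcl9 probe sets was measured.

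Receptors, signalling genes and sensors were spread on both sides of 0. Their median log2 ratio was 0.18 over 12 genes, with 8 above 0 (66.7%, against 46.5% of all genes). The 0 past 2-fold either way is near the 3.58% higher and 0.532% lower over all genes. Of the receptor chains, Ifngr1, the ligand-binding chain for interferon gamma, had 4812 and 3523 (log2 ratio -0.45), while its partner Ifngr2 had 132 and 206 (0.64; second probe set 0.27). The type I receptor chains gave 544 and 634 for Ifnar1 (log2 ratio 0.22) and 1171 and 1243 for Ifnar2 (0.09), with other probe sets at -0.04 for Ifnar1 and at -0.02 and -0.25 for Ifnar2. Ifnar1, Ifnar2 and Ifngr2 lie together on chromosome 16.

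Among the transcription factors, Irf7, which amplifies the type I response, had 267 and 433 (log2 ratio 0.70). Irf9, the DNA-binding part of the Stat complex, had 807 and 1059 (0.39), and Irf1, an early target of interferon gamma, had 1617 and 1774 (0.13). Stat2 gave contrary values: its brightest probe set had 141 and 99.7 (log2 ratio -0.50), and a second had 63.2, below the floor, and 114 (at least 0.73). No direction can be given for Stat2. Socs1, the feedback inhibitor of Jak kinases, had 293 and 247 (log2 ratio -0.25). Its promoter holds ISRE letters, as does that of Stat2.

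The 3 cytoplasmic RNA sensors did not share a direction. Dhx58 (Lgp2), which tunes the other sensors, had 202 and 383 (log2 ratio 0.93), the largest value of the class and short of 2-fold. Ddx58 (RIG-I) had 609 and 742 (log2 ratio 0.29), and its 3 probe sets were all above 0, the third as a bound. Ifih1 (Mda5) had 1423 and 1225 (log2 ratio -0.22).

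**Figure D3:**
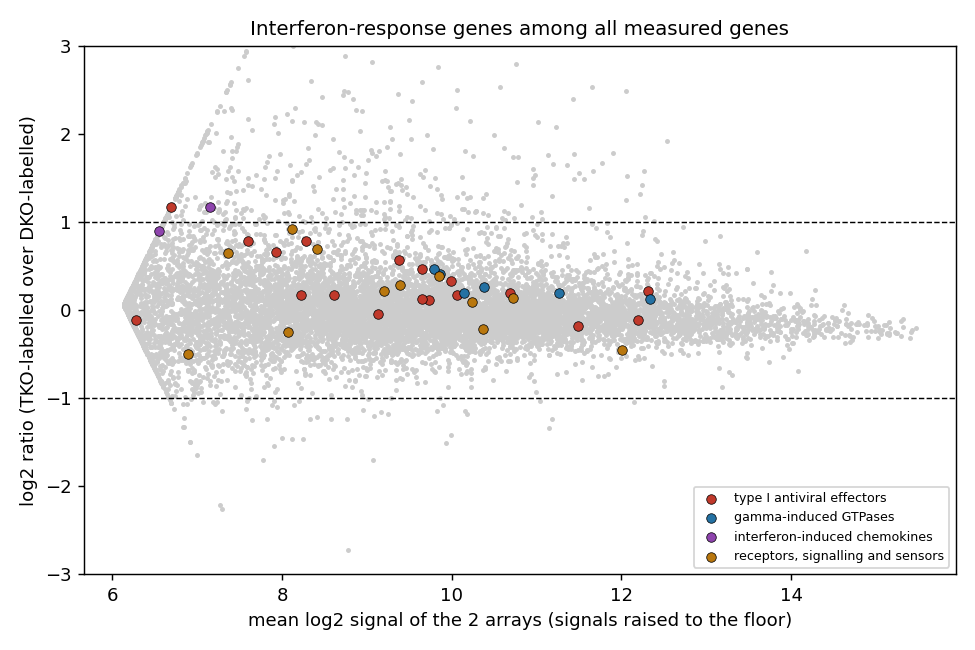
Log2 ratio against mean log2 signal for all 11280 measured genes (grey) and the 38 members (coloured by class), with dashed lines at 2-fold; 13 genes beyond a log2 ratio of 3 in either direction are outside the axis. The members with ratios over 0.6 lie in the left part of the plot, and those above a mean log2 signal of 11 lie between -0.45 and 0.22.

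The larger ratios belonged to members with low signals. The genes were split at a mean log2 signal of 8.73, the average of the 2 arrays' 75th percentiles. Of 14 members below it, 9 were at least 1.5-fold higher (Mx2, Cxcl10, Dhx58, Mx1, Ifit3, Irf7, Oas2, Ifngr2 and, as a bound, Cxcl9), 2 of them at least 2-fold, and 0 were 1.5-fold lower. Their median log2 ratio was 0.68. Among all 4401 genes in that range 14.2% were 1.5-fold higher, 5.52% were 2-fold higher and 5.73% were 1.5-fold lower, with a median of 0.05. Of the 24 brighter members 0 passed 2-fold upward and 0 passed 1.5-fold either way, beside 2.34% of all brighter genes 2-fold higher, 5.13% 1.5-fold higher and 1.7% 1.5-fold lower. Their median was 0.19 against -0.05, and 19 of the 24 (79.2%) were above 0, against 41.2% of all 6879 brighter genes. The lean above 0 was thus seen in both signal ranges, and the ratios past 1.5-fold in the lower one. The arrays differed in sex-linked RNA, although 0 of the 38 members lie on chromosome X or Y: Xist had 124 and 16502, and Kdm5d on the Y chromosome had 652 and 30.4, below the floor.

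**Figure D4:**
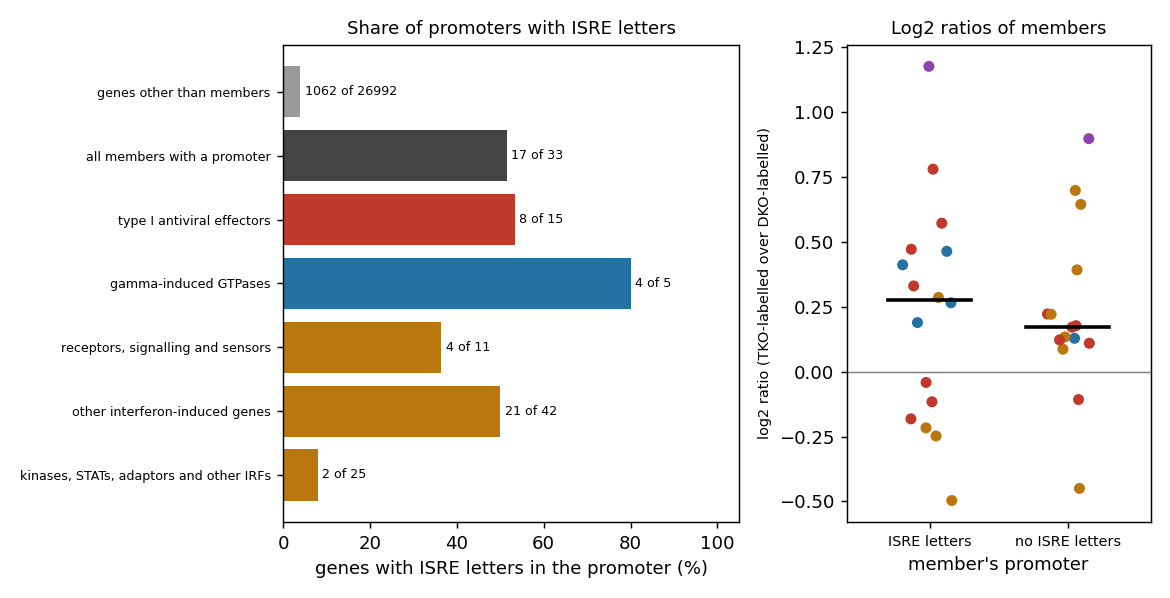
Left, percent of genes whose RefSeq promoter holds ISRE letters, with counts, for genes other than members, the members, 3 of their classes and 2 other interferon lists; right, log2 ratio of the 31 measured members with a promoter, by ISRE letters, with black bars at the medians and colours by class (red, antiviral; blue, GTPases; purple, chemokines; ochre, receptors, signalling and sensors). The left bars are tall for members and short for other genes, and the right columns overlap over nearly their whole range.

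ISRE letters went with no clear difference in ratio among the members. The 16 measured members with them had a median log2 ratio of 0.28, from -0.50 to 1.18, with 10 above 0, and the 15 without had 0.17, from -0.45 to 0.90, with 13 above 0. The ranges overlap almost fully. Over all measured genes 46.5% were above 0. Beyond the members, 322 measured genes with ISRE letters had a median of -0.01, against -0.03 over all genes. At least 2-fold higher were 4.35% of the 322, near the 3.58% of all genes. Of the 15, 6 held GAS letters alone, among them Irf1, and 9 measured members held neither, among them Irf7, Irf9 and Cxcl9.

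Signals for the interferons themselves were mostly below the floor. Of 16 ligand and inducer genes listed, 12 had a probe set and 5 were measured, 2 of them at least 2-fold higher (40%, against 3.58% of all genes) among few genes. Ifnb1 (23.0 and 35.9) and 5 of the 6 alpha-family probe genes were below the floor on both arrays, and the sixth, Ifna5, was just above it on the array titled DKO alone (77.5 and 59.8). Ifng, the T and NK cell interferon, had 65.0, below the floor, and 143, a difference of at least 2.08-fold. Il12a, a subunit of the cytokine that induces Ifng in T and NK cells, had 76.1 and 372 and was 4.89-fold higher, while the partner subunit Il12b was below the floor on both arrays (43.3 and 48.7). Il18 had 264 and 323 (log2 ratio 0.29) and Ifnz had 198 and 252 (0.35). Both genes past 2-fold have a single measured probe set, with a DKO signal near the floor.

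The kinases, adaptors and regulators that pass the signal were centred near 0. Of 28 such genes with a probe set, 25 were measured, and 2 of them passed 2-fold upward (8%, against 3.58% of all genes), 0 downward, around a median log2 ratio of 0.03. Jak1 had 3634 and 3469 (log2 ratio -0.07), the phosphatase Ptpn2, which removes phosphate from Jak and Stat proteins, had 5410 and 5526 (0.03), and Ptpn6 (Shp-1), a phosphatase of blood cells, had 2816 and 4379 (0.64). The 2 higher genes were the interferon regulatory factors Irf5 (122 and 352, 2.89-fold) and Irf4 (375 and 990, 2.64-fold), both known for roles in B and myeloid cells. Their second probe sets gave log2 ratios of only 0.23 and 0.48.

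Other interferon-induced genes resembled the members in their median and held larger single values. Of 49 genes with a probe set 44 were measured, of which 5 passed 2-fold upward (11.4%, against 3.58% of all genes) and 0 downward. Their median log2 ratio was 0.27, and 35 were above 0 (79.5%, against 46.5%). Ifi27l2a had 1793 and 10047 and was 5.60-fold higher, from 1 measured probe set. Samhd1, which degrades the nucleotides viruses need, had 396 and 1071 (2.71-fold; 4 probe sets from 0.26 to 1.80). Cmpk2, a mitochondrial nucleotide kinase gene next to Rsad2, had 390 and 994 (2.55-fold; second probe set 0.38). The membrane protein gene Ifitm1 had 295 and 723 (2.45-fold), and Trim30d had 415 and 916 (2.21-fold; second probe set 0.71). Of the 3 with the highest signals among the rest, Ly6e had 18741 and 16101 (log2 ratio -0.22), Gbp7 had 3807 and 3856 (0.02) and Lgals9, which encodes a galectin, 2729 and 3478 (0.35). Gbp6 (log2 ratio -0.52) and Gbp8 (-0.60), unlike their relative Gbp3, were below 0 without reaching 2-fold. Gbp2, another relative, had probe sets on both sides of 0. Oas1b had the lowest value of the list (-0.62). At 1.5-fold, 13 of the 44 were higher and 2 lower, against 8.66% and 3.27% of all genes.

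**Figure D5:**
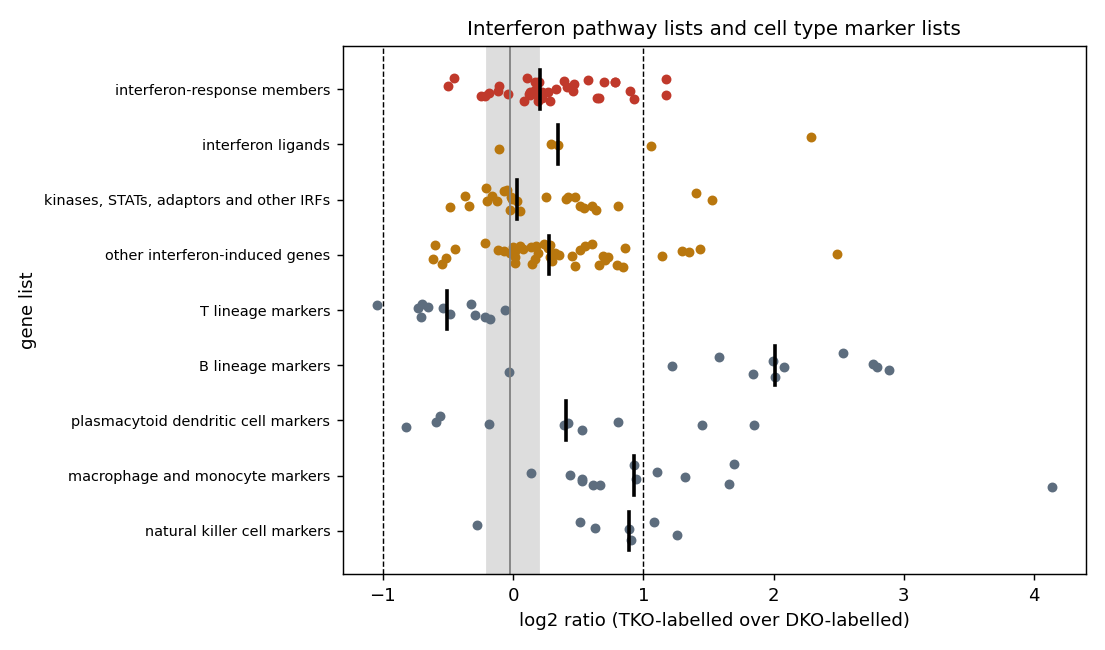
Log2 ratio of each measured gene in the member list, 3 other interferon lists and 5 cell type marker lists, with black bars at the medians, the grey band at the middle 50% of all measured genes and dashed lines at 2-fold. The 3 induced-gene and ligand rows have medians between 0.21 and 0.35, the B lineage row is centred at 2.01 and the T lineage row at -0.51.

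Marker lists of B cells, macrophages, natural killer cells and plasmacytoid dendritic cells had medians of 2.01, 0.93, 0.89 and 0.41, beside 0.21 for all interferon-response members and 1.04 for the 2 chemokines, and T-lineage markers had -0.51. The defining T-lineage markers were bright on both arrays (Cd3e 3177 and 2809), and all 12 measured markers were below 0, with a summed signal of 110874 in DKO and 75754 in TKO, and 1 of them, Il2ra, was at least 2-fold lower. B lineage markers were at least 2-fold higher for 10 of 11 (90.9%, against 3.58% of all genes), with summed signals of 20738 and 44787. The exception was Ighm, at 13009 and 12741 (log2 ratio -0.03, with 8 probe sets from -0.03 to 2.13). It makes up most of the DKO sum. Macrophage and monocyte markers were 2-fold higher for 5 of 13 measured (38.5%, against 3.58% of all genes). Their summed signals over 15 genes were 3841 and 11673, mostly Lyz1, Lyz2 and Chil3. All 13 were above 0, with Cd68 at 0.53, Adgre1 at 0.44 and, as a bound, Fcgr1 at 0.14. Cd14 and Itgam were below the floor on both arrays. Natural killer cell markers were 2-fold higher for 2 of 7 measured (24116 and 22487 summed over 8, mostly Gzma), and plasmacytoid dendritic cell markers for 2 of 10 (28256 and 27119 over 12, a list that holds Bst2 and Irf8). Their part in the interferon values was not tested, and with 1 array each, genotype label, sex and cell makeup cannot be told apart. The targeted genes do not settle the labels: Cdkn2a had 679 and 18.5, Ring1 133 and 147, and Rnf2 4149 and 4384, and no source used here places these probe sets inside or outside the deleted parts.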

How the data were processed

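The deposited values are linear array intensity values, 1 per probe set, scaled per array by the authors; per the submitters' processing notes MAS5 was used, and no settings are stated there. With 2% trimmed at each end, both arrays had a mean signal of 497. Of 45037 probe sets, 34945 carried 1 gene symbol, 932 several and 9160 none in the platform annotation; 99.4% of the first matched a RefSeq table (GRCm38.p6) by Entrez ID, used for symbols and neighbours. Each gene was represented by its brightest probe set. Signals below the array's 50th percentile were raised to it, and genes under it on both arrays (6913) have no ratio. Genes were counted at 2-fold, a rule of size, because 1 array per title allows no test; arrays were grouped by title. The number of arrays limits the precision. Software was pandas 2.3.3, numpy 2.4.6, statsmodels 0.14.6, scipy 1.17.1 and matplotlib 3.10.9 under Python 3.11.15. The procedure was tested on simulated data in which only bright genes were changed, each by more than 2-fold. That simulation does not cover genes near the floor or changes close to 2-fold. The lists of members and other genes, and the rules, were chosen with earlier results of these data known, although probe sets were matched to them by symbol alone. All members were described; of other lists, genes past 2-fold and the 3 highest signals, while other genes named there were picked once their values had been seen. The split by mean signal was also chosen after seeing the data. Members within 1 Mb of each other are called neighbours. Alternatives were 3 scalings, 2 floors, 2 probe set rules and a 1.5-fold rule.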

Additional observations from a re-analysis of the deposited data

How the results depend on the processing

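No paired analysis was possible because each group has 1 array. Under the 3 other scalings the members past 2-fold numbered 2 higher and 0 lower each time, with 30 of 38 above 0 and medians from 0.20 to 0.24. With the floor at the 75th percentile 0 of the 25 members measured were higher, so the antiviral count was also 0, Irf7 was at 0.05, and the kinase, adaptor and regulatory factor list had 1. With the floor at the 25th percentile both chemokines (2) were higher, at a median of 1.58, and 1 other interferon-induced gene was lower. The 1.5-fold rule gave 9 members higher. As means over probe sets, the kinase list had 0 and the other induced genes 3 higher, and Stat2 was at 0.11, Rsad2 at 0.04 and Gbp2 at 0.13. Without suffixed probe sets 28 members were left, 2 higher, with Gbp2 at -0.16 and Iigp1 at -0.03; 1 ligand gene was higher there, and 1 also after quantile normalization. The causes of these changes were not tested beyond the floor's own construction. Over the 7 alternatives of scaling, floor and probe set, wherever they were measured, 27 members kept a ratio above 0, 7 kept one below, and 4 changed sign. These counts do not measure agreement between probe sets. Rsad2, whose other probe sets were at -0.18, and Trim25, with a probe set at 0.17, are counted as keeping their sign. At the 75th-percentile floor no chemokine and no ligand could be given a value. No detection calls were used, so the floor alone limits what counts as measured.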
